A study of Mus musculus with 88 samples.

Results

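NFSa is a fibrosarcoma that arose without treatment in a C3H/He mouse, and this time course followed it after a single dose of 30 Gy of gamma rays. The arrays were chosen by their titles, 2 untreated arrays of the gamma arm and 2 each at 6 h, day 1 and day 3 after irradiation, which are 8 of the 88 arrays of the series. The series set carbon ions against gamma rays, with gamma rays as the comparison beam, in 4 tumours carried in the hind leg of C3H/HeNrs mice. The other 3 tumours were NR-S1 and SCCVII, squamous cell carcinomas that arose without treatment, and #8520, a fibrosarcoma induced by radiation, of which 24 arrays, those of the same gamma dose and times with their untreated arrays, were used here for comparison. NFSa was also given 50 Gy of gamma rays (6 arrays at the same times), and the carbon-ion arm had its own 2 untreated NFSa arrays. Every array held total RNA of tumour tissue in 1 colour, so that the RNA of tumour cells and host cells was read together. The values are the deposited intensities on a linear scale, with a median near 1 on each array, and all changes are on the log2 scale, irradiated minus untreated. Whether paired arrays stem from different mice is not said in the labels, so a p-value covers only the spread between arrays, which may be technical. In the titles the day 1 arrays of the gamma arm are numbered 3 and 4, and those of its other groups 1 and 2. What the number stands for is not said, so day 1 and a separately numbered set of arrays cannot be told apart.

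Ionising radiation breaks DNA, and the damage stabilises p53, a transcription factor whose targets stop the cell cycle or start cell death. Cells with damaged DNA stop before mitosis, at the G2 checkpoint, and the genes of mitosis are then transcribed less. A tumour also holds T cells, natural killer (NK) cells and macrophages. T and NK cells release interferon gamma, which switches on guanylate-binding proteins, the chemokines CXCL9 to CXCL11 and genes of antigen presentation, and cells that sense nucleic acids in the cytosol make type I interferon, which switches on a partly shared set of antiviral genes.

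The 8 arrays had medians of 1.05 to 1.06, and 210 to 267 of 36227 probes had no value on an array. Within a group the arrays correlated at 0.996 to 0.997 over genes, with a standard deviation of their log2 difference of 0.175 to 0.209. The tests were limma's, on 1 model of all 88 arrays, with p-values adjusted by the Benjamini-Hochberg method over all genes of a comparison, and a gene passed under 0.05. The median standard error of a change was 0.119. The same marker genes were compared between the tumours' untreated gamma-arm arrays. The sum of 19 keratinocyte and epithelial markers was 47.0 and 43.9 in NFSa, against 1472 and 1512 in NR-S1, 55.0 and 57.7 in SCCVII and 34.7 and 36.4 in #8520. NFSa thus lay far below NR-S1 in these markers but near SCCVII, which is labelled a carcinoma too. The sum of 21 fibroblast markers was 1036 and 946 in NFSa, against 579 and 570.2 in NR-S1, 727 and 804 in SCCVII and 936 and 1108 in #8520. In NFSa Krt5, the keratin of basal keratinocytes, read 0.370 and 0.356 on the untreated arrays, 0.296 and 0.285 at 6 h, 0.335 and 0.341 at day 1 and 0.318 and 0.473 at day 3. Krt5 had been chosen after its values were seen.

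The untreated arrays themselves stood apart from those of the carbon-ion arm, and this bears on every change given below. Gbp8, a guanylate-binding protein induced by interferon gamma, read 47.6 and 44.8 on the untreated arrays of the gamma arm, against 0.211 and 0.180 on those of the carbon-ion arm (log2 difference 7.89, SE 0.118, adjusted p = 2.1e-47). Cxcl9, a chemokine that draws T cells and is induced by interferon gamma, read 76.5 and 63.9, against 1.95 and 2.11 (log2 difference 5.11, SE 0.102, adjusted p = 1.3e-41). For both genes the arrays of the arms were far apart while the arrays within an arm lay close together. Calhm6, Saa3 and Acod1, the last the enzyme that makes itaconate in activated macrophages, were next, higher by 4.95, 4.74 and 4.46 in the gamma arm. At the other end Psme3ip1, the slow-muscle genes Myl2 and Tnnc1, the replication helicase subunit Mcm7 and the elongation factor Eef2 were lower in the gamma arm, with differences of -3.19, -3.18, -3.12, -2.75 and -2.74. Psme3ip1 rests on 1 array, since its gamma-arm arrays read 0.0275 and 0.709, against 1.40 and 1.16 in the carbon-ion arm, and without the first untreated array the difference was -0.85.

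By list, 21 of 21 interferon gamma GTPases and chemokines were higher in the gamma arm (median 2.54), in a comparison in which 20.2% of all genes were higher, 29% lower and 49.2% differed in either direction (median over all genes -0.06). With quantile normalization 3392 genes were higher and 3314 lower. NK and cytotoxic markers were higher in 16 and lower in 1 of 18 (median 2.24), and T cell markers higher in 12 and lower in 1 of 16 (median 1.28). G2/M and mitosis genes were lower in 28 of 33 (median -0.75), and sterol synthesis genes lower in 15 and higher in 1 of 18 (median -0.91). The summed intensity of the interferon gamma list was 759 and 689 in the gamma arm, against 126 and 124 in the carbon-ion arm, and that of the NK list 119.8 and 113, against 32.9 and 33.5. The arm and the occasion on which its tumours were taken cannot be told apart from these labels. For many of the immune genes the change is therefore given also against the carbon-ion arm's untreated arrays, a setting that takes only the baseline from elsewhere. With that baseline 3320 genes were higher and 3714 lower at 6 h, 3680 and 3015 at day 1, and 3494 and 4249 at day 3. These counts, of 13465 genes in the fit, stand beside every list count given against that baseline.

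**Figure D1:**
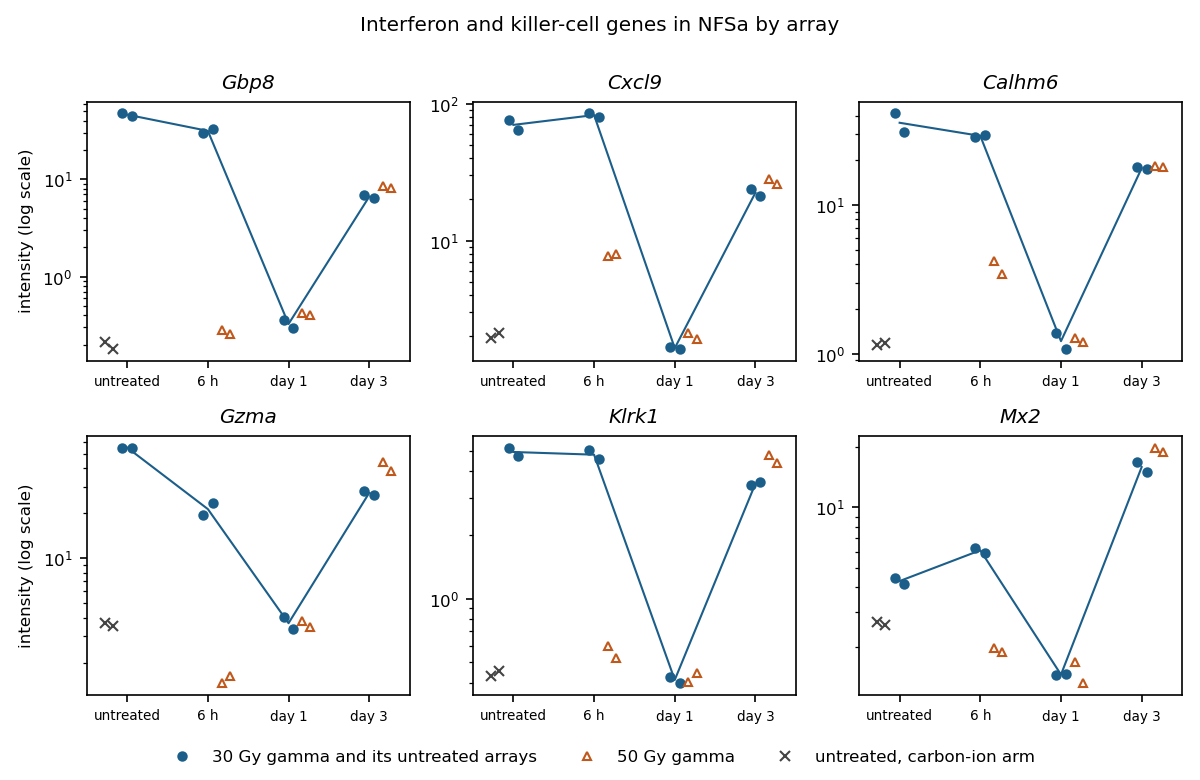
Intensity (log scale) of 6 interferon and killer-cell genes on each NFSa array, untreated and at 6 h, day 1 and day 3. Filled circles are the 30 Gy gamma time course with its untreated arrays, joined through the group means of log2, open triangles are 50 Gy gamma and crosses the untreated arrays of the carbon-ion arm, 2 arrays per group. Gbp8 reads 47.6 and 44.8 untreated, 0.358 and 0.296 at day 1 and 6.87 and 6.40 at day 3, and its carbon-arm untreated arrays read 0.211 and 0.180.

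At 6 h after 30 Gy the p53 targets rose, the genes of mitosis fell, and genes that draw or mark neutrophils rose. Of 13463 genes tested, 1985 passed (14.7%), 1240 higher and 745 lower, of which 180 had a change of 2-fold or more. The median over all genes was 0.02. Without the second untreated array 1261 genes passed, and without the second 6 h array 1205. The 3 times share the 2 untreated arrays, so their changes are not independent of each other.

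Among p53 targets of arrest and feedback 16 of 24 rose at 6 h and the others did not pass (median 0.88), where 9.21% of all genes rose. Cdkn1a, a p53-induced inhibitor of cyclin-dependent kinases, read 41.4 and 33.3 on the untreated arrays, 82.8 and 63.7 at 6 h, 58.7 and 91.0 at day 1 and 115 and 120.0 at day 3. The irradiated arrays lay above both untreated arrays at each time, and the day 1 arrays lay furthest from each other. The change was 0.97 at 6 h (SE 0.192, adjusted p = 1.5e-04), 0.98 at day 1 (adjusted p = 7.2e-05) and 1.66 at day 3 (adjusted p = 4.5e-10). Mdm2, which marks p53 for degradation, read 1.82 and 1.79 on the untreated arrays, 4.71 and 4.81 at 6 h, 3.50 and 4.18 at day 1 and 3.77 and 2.99 at day 3. Its change was 1.40 at 6 h (SE 0.204, adjusted p = 4.2e-07), 1.08 at day 1 (adjusted p = 3.4e-05) and 0.89 at day 3 (adjusted p = 4.2e-04), so that the largest of the 3 changes of Mdm2 was the earliest and that of Cdkn1a the latest. Against the carbon-ion arm's untreated arrays the day 3 change of Mdm2 was -0.07. Ccng1, cyclin G1, read 12.8 and 11.6 on the untreated arrays, 46.5 and 39.1 at 6 h, 37.3 and 35.7 at day 1 and 27.1 and 30.5 at day 3, with changes of 1.81, 1.58 and 1.24 (SE 0.130 each). Ptprv, a receptor-type tyrosine phosphatase induced by p53 in the mouse, read 6.88 and 6.74 on the untreated arrays, 32.9 and 31.8 at 6 h, 33.8 and 32.7 at day 1 and 44.9 and 38.8 at day 3. It had the largest change of the list at all 3 times (2.25, 2.29 and 2.62, adjusted p at most 9.2e-25). Dcxr, the xylulose reductase, changed by 1.87, 1.5 and 1.78, and Ephx1, the microsomal epoxide hydrolase, by 1.77, 1.93 and 2.03. The list as a whole had 15 of 24 members higher at day 1 (median 0.63) and 13 higher and 2 lower at day 3 (median 0.65).

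Of 13 p53 targets of cell death 7 rose at 6 h (median 0.59), 6 at day 1 (median 0.23) and 5 at day 3 (median 0.28). Over all genes 9.21%, 18% and 15.1% rose at these times. Pidd1, which builds the platform that activates caspase-2, read 5.57 and 5.73 at 6 h, against 2.13 and 2.32 untreated (log2 change 1.35, SE 0.114, adjusted p = 8.2e-14). Pmaip1 (NOXA) and Bbc3 (PUMA) encode proteins that neutralise BCL-2. Bbc3 rose by 1.33, 0.80 and 0.81 at the 3 times, and Pmaip1 by 1.32 at 6 h. The death receptor genes moved at different times, Fas by 0.97 at 6 h (adjusted p = 1.2e-04) and Tnfrsf10b by 0.84 at day 1 (adjusted p = 6.3e-11), and the exonuclease gene Aen by 0.81 at day 1 and 0.69 at day 3. Celf5, an RNA-binding protein of the CELF family, had the largest rise of any gene the rule names at 6 h, 2.75 and 2.84, against 0.265 and 0.264 untreated (log2 change 3.40, SE 0.110, adjusted p = 1.2e-30), and read 0.908 and 0.838 at day 1 and 0.918 and 0.923 at day 3. Sapcd2 and the helicase gene Pif1 were among the largest falls at 6 h, with changes of -1.74 and -1.54.

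**Figure D2:**
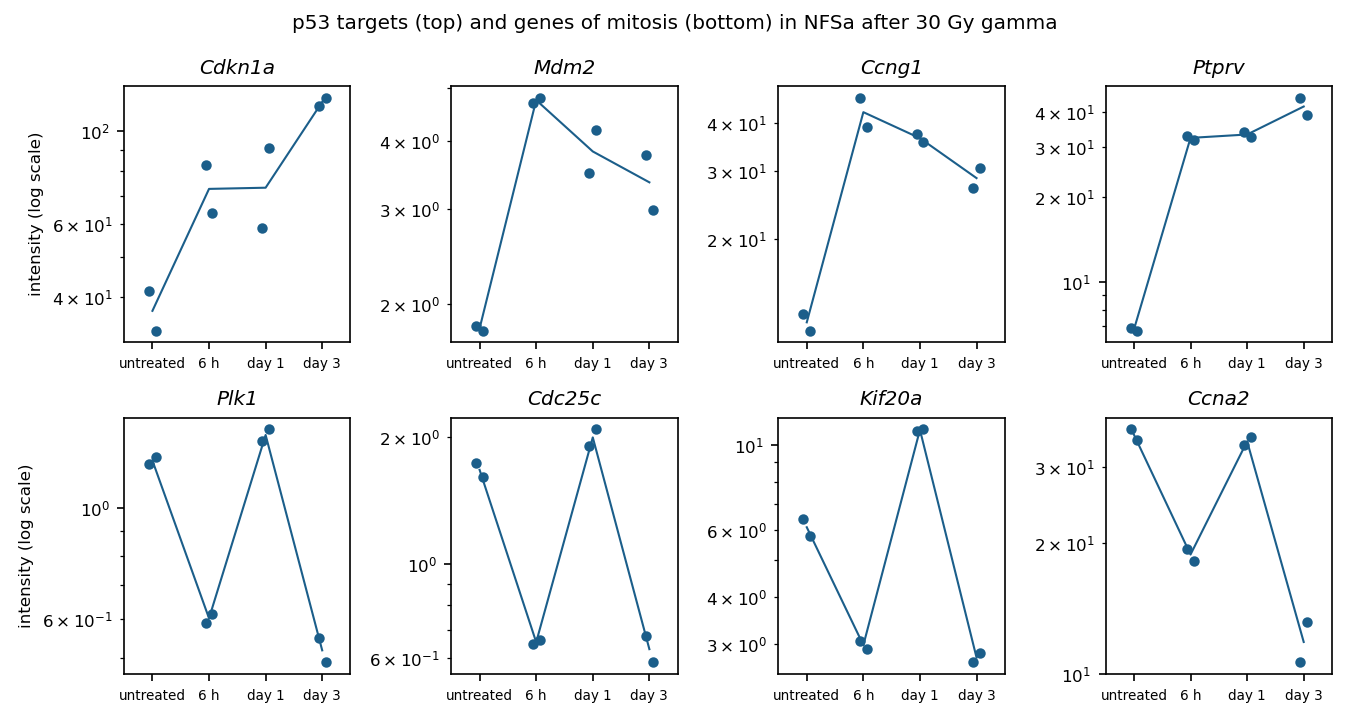
Intensity (log scale) of 4 p53 targets (top row) and 4 genes of mitosis (bottom row) on each NFSa array, untreated and at the 3 times after 30 Gy. Points are the 2 arrays of a group and lines join the group means of log2. Ptprv stays high at all 3 times, while Plk1 reads 0.590 and 0.613 at 6 h, 1.36 and 1.44 at day 1 and 0.548 and 0.491 at day 3, against 1.22 and 1.26 untreated.

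Genes of G2/M and mitosis fell at 6 h and at day 3, and at day 1 about as many rose as did not pass. Of 33 tested, 30 fell at 6 h (median -0.58), where 5.53% of all genes fell. At day 1 17 rose and 1 fell (median 0.35), and at day 3 32 fell (median -1.13). Plk1, a kinase of mitotic entry, read 1.22 and 1.26 on the untreated arrays, 0.590 and 0.613 at 6 h, 1.36 and 1.44 at day 1 and 0.548 and 0.491 at day 3. The 6 h and day 3 arrays all lay below the untreated ones and the day 1 arrays above them. Plk1 changed by -1.05 at 6 h (SE 0.113, adjusted p = 2.0e-10) and -1.26 at day 3 (adjusted p = 1.8e-13), and its 0.17 at day 1 did not pass (adjusted p = 0.276). Cdc25c, the phosphatase that activates CDK1, read 1.74 and 1.61 on the untreated arrays, 0.646 and 0.662 at 6 h, 1.91 and 2.09 at day 1 and 0.676 and 0.586 at day 3, with changes of -1.36 at 6 h and -1.41 at day 3. Ccnb2, cyclin B2, fell by 1.10 at 6 h and Aurka, the spindle kinase, by 1.04. Kif20a, a kinesin of cytokinesis, read 6.41 and 5.77 on the untreated arrays, 3.06 and 2.92 at 6 h, 10.9 and 11 at day 1 and 2.69 and 2.85 at day 3. It rose at day 1 (log2 change 0.85, SE 0.110, adjusted p = 1.3e-08), as did Prc1, which bundles the midzone microtubules, by 0.80 and Ube2c, the ubiquitin-conjugating enzyme of the anaphase-promoting complex, by 0.67. At day 3 the largest falls of the list were those of Ccna2, cyclin A2 (-1.59), Cdc25c, the kinesin Kif4 (-1.40) and Incenp, of the chromosomal passenger complex (-1.38).

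This list depends on the baseline at day 1. Against the untreated arrays of the carbon-ion arm 32 fell at 6 h (median -1.32), 4 rose and 17 fell at day 1 (median -0.36), and 32 fell at day 3 (median -1.84). Over all 13465 genes 3714 fell at 6 h, 3680 rose and 3015 fell at day 1, and 4249 fell at day 3. The step between times uses no untreated array. From 6 h to day 1 29 of 33 rose (median 0.89), where 14% of all genes rose and 24.1% changed in either direction, and from day 1 to day 3 32 fell (median -1.44), where 22.7% of all genes fell and 34.3% changed.

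The promoters of this list were searched for 1 motif. A CCAAT box, the motif bound by NF-Y, was searched as CCAAT on both strands in the 250 bases before the gene start, in a RefSeq table of assembly GRCm38.p6. It stood in 24 of 28 promoters of 27 listed mitosis genes (85.7%), against 11120 of all 32851 promoters (33.8%). The 27 are part of the 33 tested genes, without Cdc25c, Kif20a, Ccna2 and Incenp among others. The list was chosen with earlier results known, so the share describes the list and was not tested. The 2 promoters below are those of Ccnb2, named above for its fall at 6 h, and Ube2c, named for its rise at day 1. They were chosen because each holds several boxes, which are in capitals on either strand. That of Ccnb2 (chr9:70421555-70421804, minus strand) has 3 boxes, starting 87, 54 and 21 bases before the gene start, and that of Ube2c (chr2:164769679-164769928, plus strand) has 6, of which 2 overlap. A match is a description of the sequence and not a measured site of binding.
Ccnb2: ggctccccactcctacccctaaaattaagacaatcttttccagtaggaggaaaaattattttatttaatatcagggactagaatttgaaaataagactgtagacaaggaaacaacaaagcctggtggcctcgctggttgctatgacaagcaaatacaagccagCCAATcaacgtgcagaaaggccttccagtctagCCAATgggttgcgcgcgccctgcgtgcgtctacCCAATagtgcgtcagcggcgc
Ube2c: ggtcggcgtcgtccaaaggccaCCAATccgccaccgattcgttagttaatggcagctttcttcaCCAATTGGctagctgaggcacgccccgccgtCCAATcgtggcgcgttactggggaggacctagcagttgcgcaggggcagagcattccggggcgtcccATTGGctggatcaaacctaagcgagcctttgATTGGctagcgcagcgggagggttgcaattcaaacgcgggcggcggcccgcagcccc

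DNA replication genes fell in the largest number at day 3. Of 34, 9 fell at 6 h (median -0.17), 14 at day 1 (median -0.27) and 32 at day 3 (median -0.94). Without the first untreated array the count was 1 at 6 h and 8 at day 1, and without the second 6 h array 2 at 6 h, and the calls of Mcm3 and Mcm4 were lost without either of these arrays and that of Mcm6 without the untreated one. At 6 h the falls named were those of the replicative helicase subunits Mcm6, Mcm2, Mcm4 and Mcm3, with changes of -0.60, -0.57, -0.53 and -0.41. At day 1 they were those of the cyclins Ccne1 and Ccne2, which start S phase, at -0.74 and -0.67, with the origin licensing factor Cdc6 at -0.62, whose probes disagree (-0.10, not passed, over the mean of its probes). By day 3 the histone chaperone subunit Chaf1b read 2.28 and 2.07, against 6.18 and 5.34 untreated (log2 change -1.40, SE 0.0954, adjusted p = 9.5e-18), and Orc1, of the origin recognition complex, and the polymerase gene Pole fell by 1.39 and 1.28. DNA repair genes fell in 5 and rose in 1 of 31 at 6 h, fell in 3 and rose in 3 at day 1, and fell in 17 and rose in 1 at day 3 (median -0.49). Over all genes 9.21%, 18% and 15.1% rose at the 3 times. At day 1 the repair falls thus lay near the share over all genes and the rises below it. Ung, which removes uracil from DNA, was low at all 3 times, reading 2.80 and 2.56 on the untreated arrays, 1.19 and 1.16 at 6 h, 0.916 and 1.18 at day 1 and 0.894 and 1.10 at day 3. Its changes were -1.19, -1.36 and -1.43 (adjusted p at most 7.2e-13).

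Genes that draw or mark neutrophils rose at 6 h. Of 8 neutrophil-attracting CXC chemokines 5 rose (median 0.98), and of 17 neutrophil markers 8 rose (median 0.43), where 9.21% of all genes rose. Cxcl2, a ligand of the neutrophil receptor CXCR2, read 13.3 and 16.3 on the untreated arrays, 69.1 and 83.2 at 6 h, 5.36 and 4.27 at day 1 and 7.11 and 9.44 at day 3. Its 6 h arrays were the highest and its day 1 arrays the lowest, with changes of 2.37 at 6 h (SE 0.160, adjusted p = 2.3e-17), -1.62 at day 1 (adjusted p = 4.9e-12) and -0.84 at day 3 (adjusted p = 2.9e-05). Against the carbon-ion arm's untreated arrays, which read 2.25 and 2.21, those changes were 5.09, 1.10 and 1.88, so the sign at day 1 and day 3 turned with the baseline. Its relatives Cxcl1, Cxcl3 and Cxcl5 rose by 1.93, 1.84 and 1.43 at 6 h. Retnlg, a resistin-like protein of neutrophils, read 13.8 and 11.8 on the untreated arrays, 88.8 and 79.1 at 6 h, 12.1 and 14.1 at day 1 and 10.6 and 10.5 at day 3 (log2 change 2.72, SE 0.107, adjusted p = 4.6e-27 at 6 h). S100a8 and S100a9, which form calprotectin, rose by 2.07 and 1.92 at 6 h, and Mmp8, the neutrophil collagenase, by 1.95. Against the carbon-ion arm 7 of the chemokines were higher at 6 h, 14 of the markers were higher and 1 lower, and Retnlg and S100a8 changed by 4.59 and 4.65. Over all 13465 genes 3320 were higher and 3714 lower at 6 h with that baseline. Fpr2, a formyl peptide receptor, fell by 1.58 at day 1, when 6 of the 17 markers fell and 3 rose. At day 1 8.97% of all genes fell and 18% rose, so the rises of these markers lay near that share. Without the first untreated array or the second day 1 array 3 markers fell, and against the carbon-ion arm the change of Fpr2 was 0.09. In bulk RNA, fewer cells of a type and less RNA per cell cannot be told apart.

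Inflammatory cytokines and acute phase genes rose in 16 and fell in 2 of 27 at 6 h (median 0.57). Il6 read 16.7 and 16.4 at 6 h, against 5.22 and 4.32 untreated (log2 change 1.80, SE 0.110, adjusted p = 7.3e-19), and 3.22 against the carbon-ion arm. Il1b, which encodes interleukin 1 beta, read 31.3 and 30.7 on the untreated arrays, 92.9 and 98.2 at 6 h, 11.7 and 8.71 at day 1 and 14.5 and 18.8 at day 3, with changes of 1.63 at 6 h and -1.62 at day 1, the second being 0.63 against the carbon-ion arm. Ptx3, a long pentraxin, and Orm2, an acute-phase glycoprotein, rose by 1.81 and 1.69 at 6 h. Of 19 CC chemokines 5 rose and 2 fell at 6 h (median 0.10), where 9.21% of all genes rose and 5.53% fell. Ccl20, the ligand of CCR6, rose by 2.11 and Ccl24, an eotaxin, by 1.75 at 6 h. Il33, an alarmin, was the largest change of the inflammatory list at day 3, reading 45.2 and 41.7, against 12.8 and 9.82 untreated (log2 change 1.95, SE 0.114, adjusted p = 2.3e-20).

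T and NK cell transcripts were lower at 6 h than untreated. Of 16 T cell markers 7 fell and 1 rose (median -0.35), and of 18 NK and cytotoxic markers 11 fell and 2 rose (median -0.72). Over all genes 5.53% fell and 9.21% rose. Cd3g, a chain of the T cell receptor complex, read 1.21 and 1.10 at 6 h, against 2.80 and 2.52 untreated (log2 change -1.21, SE 0.134, adjusted p = 4.7e-10), and Cd8b1 and Cd5 fell by 1.19 and 1.16. Gzma, granzyme A of killer cells, read 19.5 and 23.3 at 6 h, against 55.0 and 55.0 untreated (log2 change -1.37, SE 0.141, adjusted p = 4.3e-11). These falls are relative to the untreated arrays of the gamma arm. Against those of the carbon-ion arm 16 of the NK markers were higher at 6 h (median 1.22), 11 T cell markers were higher and 2 lower, and Gzma, Cd3g, Cd8b1 and Cd5 changed by 2.56, 1.24, 1.33 and 0.54. Of all 13465 genes 3320 were higher and 3714 lower with that baseline. Of the interferon gamma list 7 of 21 rose at 6 h and 2 fell (median 0.24). Ido1, which degrades tryptophan, rose by 1.19, and Gbp8 and Ciita, the master regulator of MHC class II, fell by 0.55 and 0.64, while against the carbon-ion arm these 2 changed by 7.33 and 1.79. Without the second untreated array 4 rose, and without the first or second 6 h array 3 or 4, and 3 with quantile normalization. Type I interferon effectors rose in 14 of 30 (median 0.28), with Slfn4, Oas1a and Usp18 at 0.81, 0.57 and 0.56. Without the second untreated array 6 of these rose and without either 6 h array 8, and the calls of Slfn4 and Usp18 were lost without the second untreated array. Ifng itself, which encodes interferon gamma and was too dim over the series to be tested, read 2.33 and 2.25 on the untreated arrays, 4.83 and 4.78 at 6 h, 0.0446 and 0.0663 at day 1 and 0.364 and 0.378 at day 3. It was chosen after its values were seen.

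The largest falls at 6 h were those of genes of fat and muscle. Adipoq, the fat cell hormone adiponectin, read 0.164 and 0.146 at 6 h, against 2.33 and 2.11 untreated (log2 change -3.84, SE 0.150, adjusted p = 4.1e-27), and 2.46 and 2.73 at day 1. Myh1, a myosin of fast muscle fibres, read 0.390 and 0.145 at 6 h, against 1.40 and 1.49 untreated (log2 change -2.60, SE 0.257, adjusted p = 3.0e-11), and the change was -3.31 without the first 6 h array and -1.89 without the second. Of 26 skeletal muscle markers 11 rose and 4 fell at 6 h (median 0.27), with Myl2, a slow-muscle light chain, higher by 1.17, and -2.02 against the carbon-ion arm. Without the second untreated array 6 rose, and without the first 6 h array or with quantile normalization 7. The members of this list went both ways at 6 h, when 9.21% of all genes rose and 5.53% fell. The summed intensity of the list was 920.4 and 847 untreated, 1116 and 1088 at 6 h, 589 and 552 at day 1 and 671 and 686 at day 3. Heat shock genes were lower, Hspa1a at -1.79 and Hsph1 at -1.44, and of 25 unfolded protein and heat shock genes 8 fell and 1 rose. Slc7a11, the cystine transporter of the NRF2 response, rose by 1.45 at 6 h and fell by 1.86 at day 1. Mmp12, the macrophage metalloelastase, read 1.01 and 0.956 on the untreated arrays, 0.210 and 0.206 at 6 h, 0.394 and 0.412 at day 1 and 0.269 and 0.211 at day 3 and was lower at each time (-2.24, -1.29 and -2.04).

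**Figure D3:**
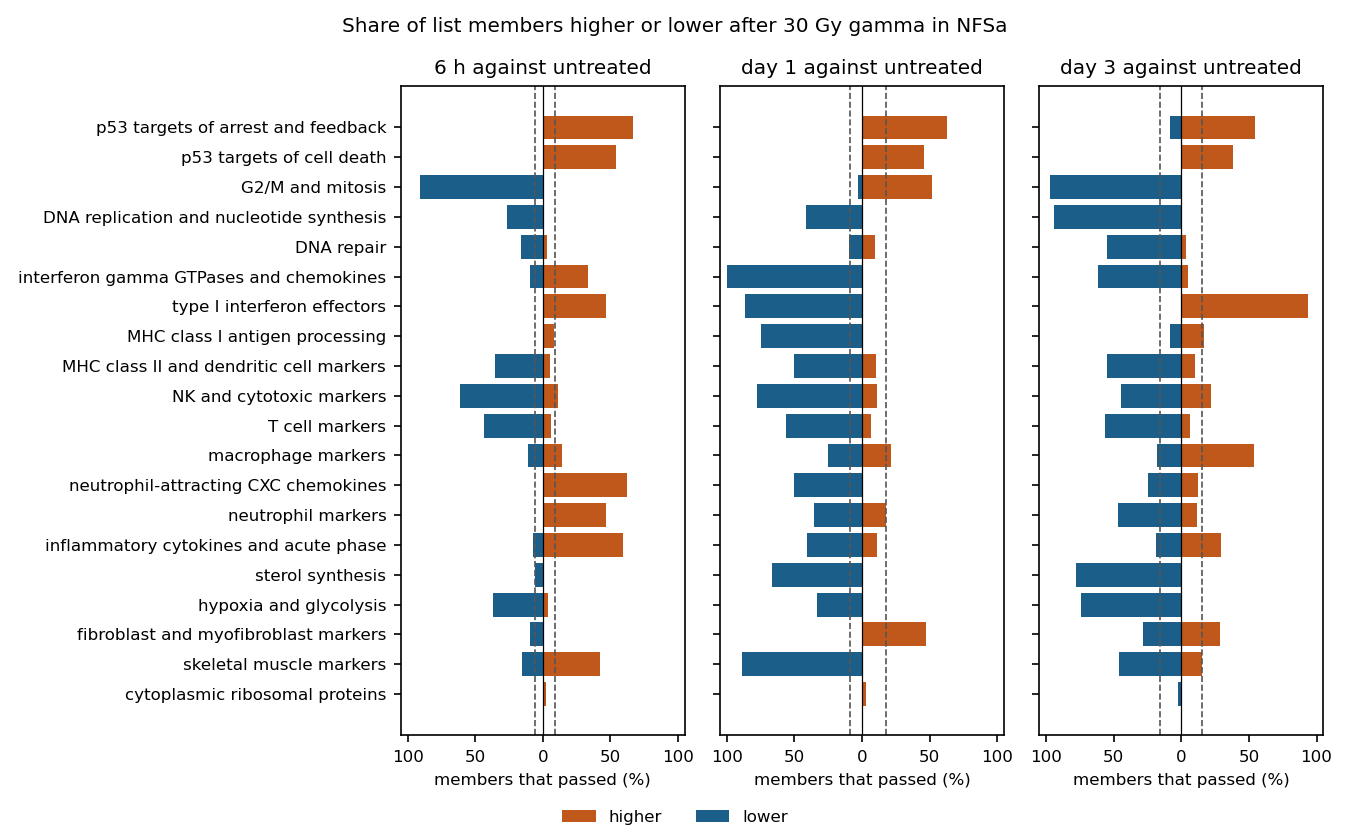
Share of the tested members of 20 gene lists that passed as higher (right of 0) or lower (left of 0) at each of the 3 times after 30 Gy of gamma rays, against the untreated arrays of the gamma arm (limma, adjusted p under 0.05). Dashed lines give the shares over all genes. Of the interferon gamma genes 21 of 21 are lower at day 1, and 30 of 33 mitosis genes at 6 h.

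At day 1 the interferon and killer-cell transcripts were lower than untreated and lower than at 6 h, and p53 targets were still higher than untreated. Over the array 3630 of 13460 genes passed (27%), 2423 higher (18%) and 1207 lower (8.97%), with a median over all genes of 0.10. Of the changes of at least 2-fold 75 were rises and 296 falls. With quantile normalization 1488 were higher and 1415 lower, so the excess of rises depends on the scaling. Without the second untreated array 2117 genes passed, 1071 higher and 1046 lower, and without the first of the day 1 arrays 2305.

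Of 21 interferon gamma GTPases and chemokines 21 fell at day 1 (median -3.02), and of 30 type I interferon effectors 26 fell (median -1.44). Gbp8 read 47.6 and 44.8 on the untreated arrays, 29.9 and 33.1 at 6 h, 0.358 and 0.296 at day 1 and 6.87 and 6.40 at day 3. It was 142-fold lower at day 1 than untreated (log2 change -7.15, SE 0.118, adjusted p = 3.0e-45). Cxcl9 read 76.5 and 63.9 on the untreated arrays, 84.8 and 80.2 at 6 h, 1.66 and 1.61 at day 1 and 23.8 and 21.0 at day 3 (log2 change -5.42, SE 0.102, adjusted p = 1.0e-42 at day 1). Both genes were high on the untreated and 6 h arrays, low at day 1 and between these at day 3. Calhm6, an ion channel gene of activated macrophages, read 41.4 and 31.0 on the untreated arrays, 28.7 and 29.7 at 6 h, 1.37 and 1.08 at day 1 and 18 and 17.4 at day 3 (log2 change -4.88, SE 0.147, adjusted p = 3.0e-33 at day 1). Acod1 fell by 5.14, the immunity-related GTPase Iigp1 by 4.53, Ubd, a ubiquitin-like modifier, by 4.50, Cxcl11 by 4.36 and Gbp4 by 4.13, with adjusted p at most 3.8e-34. Of the type I list Rsad2, the antiviral enzyme viperin, read 1.87 and 1.60 on the untreated arrays, 1.75 and 1.65 at 6 h, 0.270 and 0.303 at day 1 and 4.69 and 2.92 at day 3 (log2 change -2.59, SE 0.155, adjusted p = 3.9e-20 at day 1). Phf11a and Slfn4 fell by 2.31 and 2.25. Against the untreated arrays of the carbon-ion arm the day 1 counts were 3 higher and 10 lower for the interferon gamma list (median -0.17) and 17 lower for the type I list (median -0.37), and the changes of Gbp8, Cxcl9 and Calhm6 were 0.74, -0.31 and 0.07, with Gbp4 at 0.23. Of all 13465 genes 3680 were higher and 3015 lower at day 1 against those untreated arrays. With that baseline Acod1, Iigp1 and Ubd changed by -0.68, -1.08 and -0.46. For the interferon genes the size of the day 1 change, and for Gbp8, Calhm6 and Gbp4 also its sign, thus rests on which untreated arrays are used.

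The promoters of these lists were searched for 2 interferon motifs. The core of the interferon-stimulated response element is GAAA, any 2 bases and GAAA again on either strand. It stood in 9 of 13 promoters of the interferon gamma list (69.2%) and in 9 of 26 of the type I list (34.6%), against 978 of 32851 promoters (2.98%). The core of the gamma-activated site, TTCNNNGAA with N any base, stood in 4 of 13 (30.8%) and 4 of 26 (15.4%), against 2306 of 32851 (7.02%). The 13 promoters cover 12 of the 21 tested genes of the first list, without Gbp8 and Gbp4, and the 26 cover 22 of the 30 of the second. Many of these lists' genes are known as interferon targets, so the shares describe the lists and were not tested. The promoters of Calhm6 (chr10:34127973-34128222, minus strand), Rsad2 (chr12:26456453-26456702, minus strand) and Phf11a (chr14:59297523-59297772, minus strand) are shown because their genes were among the largest falls at day 1 and each holds the response element core, in capitals, once. The match starts 64, 120 and 29 bases before the gene start, and in Rsad2 the match is on the other strand.
Calhm6: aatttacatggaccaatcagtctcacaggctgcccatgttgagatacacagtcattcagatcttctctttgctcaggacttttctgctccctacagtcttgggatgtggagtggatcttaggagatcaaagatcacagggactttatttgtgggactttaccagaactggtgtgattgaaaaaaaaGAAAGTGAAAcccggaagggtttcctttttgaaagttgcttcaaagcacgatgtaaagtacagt
Rsad2: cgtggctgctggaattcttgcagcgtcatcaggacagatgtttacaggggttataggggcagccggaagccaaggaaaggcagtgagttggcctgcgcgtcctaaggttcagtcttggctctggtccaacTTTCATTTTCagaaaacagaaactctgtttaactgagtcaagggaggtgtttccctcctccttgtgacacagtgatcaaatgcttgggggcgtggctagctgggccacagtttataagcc
Phf11a: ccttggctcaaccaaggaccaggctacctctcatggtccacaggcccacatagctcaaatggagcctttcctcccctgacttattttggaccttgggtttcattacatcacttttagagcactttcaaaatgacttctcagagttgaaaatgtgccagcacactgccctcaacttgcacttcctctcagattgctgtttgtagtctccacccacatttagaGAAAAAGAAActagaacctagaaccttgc

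Killer-cell and T cell markers were lower than untreated at day 1. Of 18 NK and cytotoxic markers 14 fell and 2 rose (median -2.03), and of 16 T cell markers 9 fell and 1 rose (median -1.39). The T cell marker that rose was Thy1, which is also on the fibroblast list. Gzma read 55.0 and 55.0 on the untreated arrays, 19.5 and 23.3 at 6 h, 4.04 and 3.35 at day 1 and 28.2 and 26.6 at day 3. Its lowest arrays were those of day 1 (log2 change -3.90, SE 0.141, adjusted p = 1.4e-29), and the day 3 arrays lay between those of 6 h and the untreated ones. Klrk1, the NKG2D receptor, read 5.16 and 4.69 on the untreated arrays, 5.01 and 4.56 at 6 h, 0.428 and 0.399 at day 1 and 3.43 and 3.55 at day 3 (log2 change -3.57, SE 0.174, adjusted p = 7.4e-24 at day 1), and Gzmb fell by 3.10. Cd274, which encodes the checkpoint ligand PD-L1, read 59.4 and 50.6 on the untreated arrays, 77.2 and 71.1 at 6 h, 5.24 and 4.54 at day 1 and 33.7 and 31.6 at day 3 (log2 change -3.49, SE 0.135, adjusted p = 6.6e-28 at day 1). The receptor gene Pdcd1 (PD-1) fell by 2.10, and Ccl5, a chemokine made by T and NK cells, by 2.52. Tap1, the peptide transporter of MHC class I, fell by 2.44 and the immunoproteasome subunit Psmb9 by 2.01, with 9 of 12 genes of MHC class I processing lower. Of 15 B cell and plasma cell markers 5 fell and 1 rose (median -0.016), with Ighm, the IgM heavy chain, at -2.31 and Jchain at -1.65. Gzmg, a granzyme of a cluster apart from Gzma, went the other way, reading 3.48 and 3.01 on the untreated arrays, 7.75 and 7.39 at 6 h, 12.1 and 8.75 at day 1 and 23.2 and 19.4 at day 3. It rose at each time (1.23, 1.67 and 2.71, adjusted p at most 1.3e-05). The summed intensity of the NK list was 119.8 and 113 untreated, 77.2 and 76.7 at 6 h, 48.5 and 43.2 at day 1 and 141 and 135 at day 3. That of the T cell list was 42.1 and 41.9, 34.6 and 34.1, 33.0 and 32.1 and 41.1 and 38.9 in the same order. Such sums follow the brightest members. At day 3 4 of 18 NK markers were higher than untreated and 8 lower, and of 16 T cell markers 1 was higher and 9 lower. Against the carbon-ion arm 5 NK markers were higher and 1 lower at day 1 (median 0.25), 5 T cell markers were higher and 1 lower, and Klrk1, Tap1 and Ighm changed by -0.11, -0.99 and -1.58. Of 13465 genes 3680 were higher and 3015 lower with that baseline, so the shares of markers higher lay near the share over all genes. With the same baseline Gzma, Gzmb, Cd274, Pdcd1, Ccl5, Psmb9 and Jchain changed by 0.02, 0.06, 0.57, 0.05, 0.25, 0.13 and 0.15.

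Muscle markers were low at day 1, with 23 of 26 lower (median -0.74). Myoglobin, Mb, read 7.99 and 8.07 at day 1, against 40.9 and 40.1 untreated (log2 change -2.33, SE 0.118, adjusted p = 2.5e-23), and Myh1 fell by 2.63. Fibroblast markers rose in 10 of 21 (median 0.30), with Thy1, which is on the T cell list too, and Cd34 at 0.61 and 0.60. The change of Cd34 was -0.53 against the carbon-ion arm. Without the second untreated array 5 rose, and without either day 1 array or with quantile normalization 6. Collagen chains rose in 5 and fell in 2 of 19 (median 0.27), Col18a1, the source of endostatin, by 0.97, and 3 rose without the second untreated array or with quantile normalization and 8 without the first. Over all genes 18% rose and 8.97% fell at day 1. The part of muscle tissue in the other changes was not tested. Other named rises at day 1 were those of Hoatz (2.37), gamma-synuclein, Sncg (1.95), the annexin Anxa8 (1.92), the leukotriene synthase Ltc4s (1.64), the lectin Cd209f (1.63) and the sulfatase Sulf2 (1.52). Atf3, a stress transcription factor, fell by 2.11.

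At day 3 the type I interferon genes rose above the untreated level, the MHC class II genes fell, and mitosis, replication and sterol genes were low. Over the array 4172 of 13464 genes passed (31%), 2033 higher (15.1%) and 2139 lower (15.9%), with a median over all genes of -0.0044, and 515 changed at least 2-fold.

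Of 30 type I interferon effectors 28 rose (median 1.10), and of 22 nucleic acid sensors and interferon regulators 13 rose and 2 fell (median 0.65). Mx2, an antiviral GTPase, read 4.42 and 4.16 on the untreated arrays, 6.28 and 5.93 at 6 h, 1.46 and 1.46 at day 1 and 16.8 and 15.0 at day 3. Its day 3 arrays lay above all other arrays of the time course (log2 change 1.89, SE 0.105, adjusted p = 3.3e-21), and the change was 2.60 against the carbon-ion arm. Slfn4, Isg20, an exonuclease that acts on viral RNA, and Usp18, which removes the ubiquitin-like ISG15, rose by 1.83, 1.81 and 1.72. Ddx58 (RIG-I) and Ifih1 (MDA5), cytosolic sensors of viral RNA, rose by 1.37 and 1.28, Tlr3, which senses double-stranded RNA in endosomes, by 1.35, and Adar, which edits such RNA, by 1.17. Of the interferon gamma list 1 of 21 was higher and 13 were lower (median -0.49), with Gbp8 at -2.80, Ubd at -2.95 and Cxcl9 at -1.65. Their direction turns with the baseline. Against the carbon-ion arm 19 members were higher and 1 lower (median 2.41), and Gbp8, Ubd and Cxcl9 changed by 5.09, 1.09 and 3.47. For the type I list 27 were higher with that baseline too (median 2.11). Of all 13465 genes 3494 were higher and 4249 lower with it.

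The MHC class II genes, which present antigen to helper T cells, fell at day 3. H2-Ab1 read 106 and 93.6 on the untreated arrays, 57.0 and 55.5 at 6 h, 16.8 and 16.8 at day 1 and 10.8 and 11.8 at day 3, lowest at day 3 (log2 change -3.15, SE 0.0952, adjusted p = 4.1e-32), and H2-Aa and H2-Eb1 fell by 2.66 and 2.55. Cd74, the invariant chain, read 153 and 128 on the untreated arrays, 93.3 and 80.0 at 6 h, 29.3 and 28 at day 1 and 21.0 and 22.8 at day 3 (log2 change -2.68, SE 0.117, adjusted p = 1.6e-25 at day 3). Ciita, which switches these genes on, read 12.5 and 10.4 on the untreated arrays, 7.50 and 7.18 at 6 h, 1.97 and 1.79 at day 1 and 1.24 and 1.40 at day 3 (log2 change -3.12, SE 0.117, adjusted p = 4.0e-28 at day 3). For these 3 genes each pair of arrays lay below the pair before it in time. Of 20 listed class II and dendritic cell genes 11 fell and 2 rose (median -0.79), and at day 1 10 fell and 2 rose. With the carbon-ion arm's untreated arrays 9 fell and 3 rose at day 3, with H2-Ab1, Cd74 and Ciita at -1.08, -0.69 and -0.68. Of all 13465 genes 4249 fell and 3494 rose with that baseline.

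Killer-cell markers were split at day 3, 4 of 18 higher and 8 lower (median -0.24), with 3 lower without the first untreated array and 4 without either day 3 array. The rises were led by granzymes of 1 cluster. Gzmg, Gzmf, Gzmd and Gzme rose by 2.71, 2.21, 1.76 and 1.57, and these 4 are closely related copies that probes may not separate. Gzmf read 9.81 and 8.75 on the untreated arrays, 18.9 and 16.9 at 6 h, 19.7 and 18.3 at day 1 and 42.5 and 43.3 at day 3. Of 16 T cell markers 9 were lower and 1 higher (median -0.80), Cd8b1 and Cd3g at -1.70 and -1.59, against the gamma arm's untreated arrays. Against those of the carbon-ion arm 18 NK and 12 T cell markers were higher, with Cd8b1 and Cd3g at 0.82 and 0.85. Of all 13465 genes 3494 were higher with that baseline.

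Macrophage markers rose in 15 and fell in 5 of 28 at day 3 (median 0.38). Vsig4, a complement receptor of resident macrophages, read 2.04 and 1.68 on the untreated arrays, 2.20 and 2.22 at 6 h, 4.33 and 3.68 at day 1 and 11.5 and 9.97 at day 3 (log2 change 2.53, SE 0.120, adjusted p = 3.8e-24 at day 3). Siglec1, a sialic acid receptor of macrophages that interferon induces, read 7.26 and 7.01 on the untreated arrays, 6.72 and 6.38 at 6 h, 7.84 and 7.47 at day 1 and 32.1 and 31.5 at day 3 (log2 change 2.16, SE 0.0954, adjusted p = 1.1e-24 at day 3). Both were highest on the day 3 arrays, and changed by 1.68 and 2.48 against the carbon-ion arm. Folr2 rose by 1.76, and Marco, a scavenger receptor, fell by 2.13 (0.19 against the carbon-ion arm). Apoe, the lipid carrier of macrophages, rose by 1.97, and Apod, a lipocalin, read 8.12 and 6.85 on the untreated arrays, 5.44 and 4.66 at 6 h, 4.22 and 4.94 at day 1 and 59.9 and 70.3 at day 3 (log2 change 3.12, SE 0.103, adjusted p = 1.2e-30 at day 3). Complement genes outside C1q rose in 8 of 11 (median 0.51), with Cd55 and C2 at 1.24 and 1.04, C2 at -0.22 against the carbon-ion arm. Ccl11, the eosinophil chemokine eotaxin, read 92.2 and 95.4 at day 3, against 15.0 and 15.5 untreated (log2 change 2.62, SE 0.202, adjusted p = 9.4e-16). Cyp2f2, a cytochrome P450, had the largest rise of a named gene at day 3 (14.0 and 13.6, against 1.49 and 1.22 untreated, log2 change 3.35, SE 0.157, adjusted p = 3.1e-24), and Il19 and Prelp, a matrix proteoglycan, rose by 2.42 and 2.25. Retnla, a marker of alternatively activated macrophages, fell by 2.82 (0.07 against the carbon-ion arm).

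Genes of sterol synthesis and glycolysis were lower at day 3. Sterol synthesis genes fell in 12 of 18 at day 1 (median -0.38) and in 14 at day 3 (median -0.74). Idi1, the isomerase of the isoprenoid branch, read 2.72 and 2.56 on the untreated arrays, 2.19 and 2.14 at 6 h, 1.29 and 1.38 at day 1 and 0.668 and 0.584 at day 3. Its untreated and 6 h arrays were highest and its day 3 arrays lowest (log2 change -2.08, SE 0.134, adjusted p = 1.1e-18). Sqle, squalene epoxidase, fell by 1.66 and Fdps, farnesyl diphosphate synthase, by 1.36. Of 20 fatty acid synthesis genes 7 fell, with the desaturase Fads2 at -1.62 and the elongase Elovl6 at -1.61. Hypoxia and glycolysis genes fell in 10 of 27 at 6 h (median -0.31, 5 without the first untreated or the first 6 h array) and in 20 at day 3 (median -0.60). Aldoc, an aldolase, read 0.814 and 0.662 on the untreated arrays, 0.353 and 0.323 at 6 h, 0.345 and 0.380 at day 1 and 0.144 and 0.204 at day 3 (log2 change -2.10, SE 0.121, adjusted p = 2.6e-20 at day 3), and Slc16a3, the lactate exporter of glycolytic cells, fell by 1.92. Of 21 fibroblast and myofibroblast markers 6 rose and 6 fell at day 3 (median 0.12), and among the falls were those of Acta2 (-1.53) and Cnn1 (-0.98), the actin and calponin of contractile cells. Also lower were the YAP targets Ccn2 and Ccn1, at -1.85 and -1.51, while Mmp3 and Timp2 rose by 1.70 and 1.10. Endothelial markers rose in 9 and fell in 4 of 23 (median 0.22), with Mmrn2 at 1.05. For the day 3 counts here, 15.1% of all genes rose and 15.9% fell. Of 38 cytoplasmic ribosomal proteins 1 passed at 6 h, 1 at day 1 and 1 at day 3. With quantile normalization 2 were lower at each time.

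The steps between times need no untreated array. From 6 h to day 1, 3245 of 13459 genes passed (24.1%), 1886 higher (14%) and 1359 lower (10.1%), and without the second 6 h array 2155, of which 1053 were higher and 1102 lower. With quantile normalization 1510 were higher and 1492 lower, so the excess of rises depends on the scaling and on that array. The largest named falls were those of Gbp8, Cxcl9, Acod1, Cxcl11 and Calhm6, with changes of -6.59, -5.65, -5.10, -4.65 and -4.59, and 20 of 21 interferon gamma genes and 13 of 18 NK markers fell. The largest rise was that of Adipoq, by 4.06 to 2.46 and 2.73. From day 1 to day 3, 4614 genes passed (34.3%), 1556 higher (11.6%) and 3058 lower (22.7%), and with quantile normalization 1838 were higher and 2187 lower. Gbp8, Cxcl11, Iigp1 and Calhm6 rose again, by 4.35, 4.28, 4.05 and 3.87, with 19 of 21 interferon gamma genes, 27 of 30 type I interferon genes and 18 of 18 NK markers higher. In the same step Kif20a, Slc9b2, Ppbp (the platelet basic protein), Parpbp and Cip2a had the largest named falls, from -2.45 to -1.92, and 27 of 34 replication genes fell. These 2 steps set irradiated arrays against irradiated arrays and hold no untreated one, but the first rests on the 6 h pair. The summed intensity of the interferon gamma list after 30 Gy was 813 and 797 at 6 h and 118 and 111 at day 1. After 50 Gy it was 199.8 and 179.8 at 6 h and 121 and 117 at day 1, a smaller step.

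Set against the mean response of the other 3 tumours to the same dose, each against its own untreated gamma-arm arrays, NFSa had the larger falls in its interferon genes at day 1. At 6 h 1485 of 13434 genes differed (11.1%), 885 with a higher response in NFSa (6.59%) and 600 with a lower one (4.47%). At day 1 the counts were 3303 of 13427 (24.6%), 2248 higher (16.7%) and 1055 lower (7.86%), and at day 3 2437 of 13432 (18.1%), 1333 higher (9.92%) and 1104 lower (8.22%). With quantile normalization the day 1 split was 1206 higher and 1175 lower, without the second untreated array 1829 genes differed at day 1 and without the first day 1 array 2138. Without the second 6 h array 865 differed at 6 h, and without the first day 3 array 1483 at day 3.

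At day 1 the change of Gbp8 was -7.15 in NFSa, against -0.98 in NR-S1, -1.05 in SCCVII and -1.78 in #8520 (log2 difference -5.88, SE 0.136, adjusted p = 7.8e-38). Acod1 changed by -5.14, against -0.82 in NR-S1, -0.48 in SCCVII and -0.40 in #8520, and Calhm6 by -4.88, against 0.06 in NR-S1, -0.94 in SCCVII and -0.69 in #8520. The falls in NFSa were thus deeper than in each of the other tumours for these genes. The interferon gamma list was lower in NFSa's response in 21 of 21 members at day 1 (median of the difference -2.98) and in 19 at day 3 (median -1.41), and higher in 17 at 6 h (median 0.70). The type I list was lower in 25 of 29 at day 1 and in 15 at day 3, where 1 was higher, and NK markers were lower in 14 and 13 of 18 and higher in 2 and 3. Gzma changed by -1.01 at day 3 in NFSa, against 2.37 in NR-S1, 0.69 in SCCVII and 2.53 in #8520 (log2 difference -2.87, SE 0.162, adjusted p = 1.8e-20), and Ubd by -2.95, against 0.62 in NR-S1, 0.78 in SCCVII and 0.36 in #8520. These differences rest on the gamma arm's untreated NFSa arrays, whose high interferon and killer-cell values are given above. The p53 list had 9, 8 and 8 of 24 members higher in NFSa at the 3 times (medians 0.24, 0.26 and 0.13). Over all genes 6.59%, 16.7% and 9.92% were higher (medians 0.03, 0.13 and 0.04). The p53 differences rest on the same untreated arrays, where 10 of the 24 were lower and 2 higher than in the carbon-ion arm (median -0.22).

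**Figure D4:**
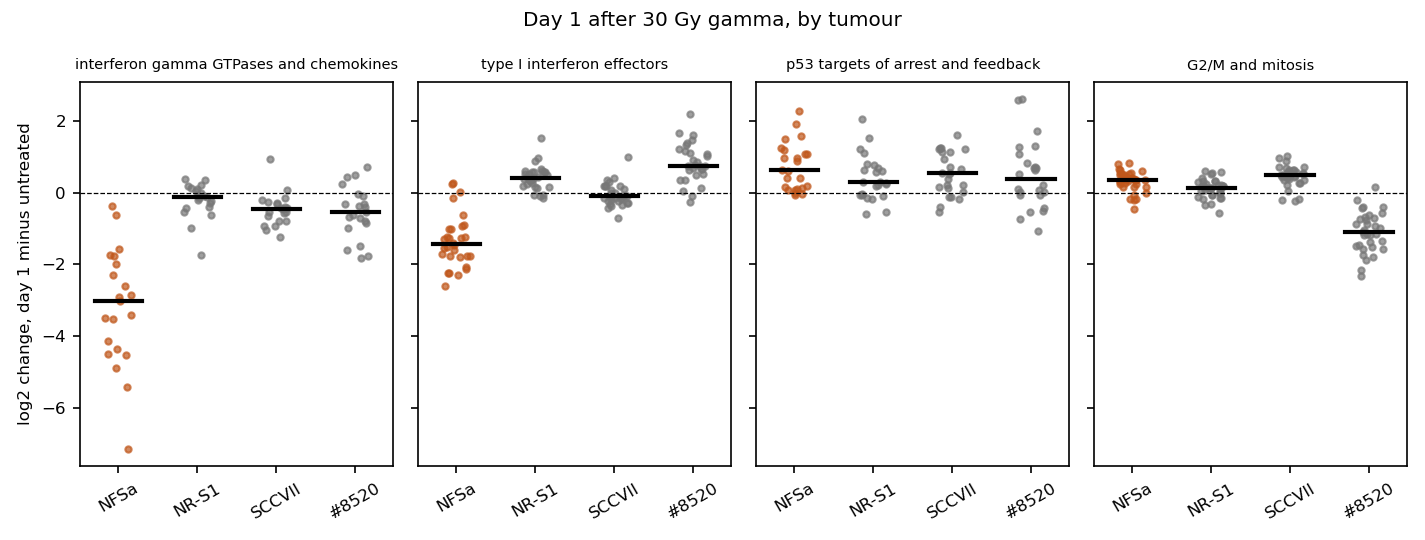
Log2 change at day 1 after 30 Gy of gamma rays, each tumour against its own untreated gamma-arm arrays, for the tested members of 4 lists. Each point is 1 gene, the bar is the list's median and the dashed line is 0. The interferon gamma genes lie lowest in NFSa (left in each panel), where 21 of 21 differ from the mean of the other tumours, and the p53 targets lie above 0 at the median in NFSa.

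Other genes had a higher response in NFSa than the mean of the other tumours. Gzmg changed by 1.23 at 6 h, against 0.39 in NR-S1, -1.34 in SCCVII and -1.81 in #8520 (log2 difference 2.15, SE 0.243, adjusted p = 2.0e-09), and Gzmf by 0.95, against 0.30 in NR-S1, -1.38 in SCCVII and -1.97 in #8520 (log2 difference 1.97, SE 0.228, adjusted p = 3.4e-09). Orm2 changed by 1.37 at day 1, against 0.05 in NR-S1, 1.04 in SCCVII and -2.14 in #8520 (log2 difference 1.71, SE 0.205, adjusted p = 2.2e-09), and Arntl, the clock gene that encodes BMAL1, by 0.67, against -0.43 in NR-S1, -1.18 in SCCVII and -1.55 in #8520 (log2 difference 1.73, SE 0.137, adjusted p = 3.5e-15). The day 1 change of Arntl in NFSa was -0.97 against the carbon-ion arm. At day 3 Cyp2f2 changed by 3.35, against 1.18 in NR-S1, -0.11 in SCCVII and 1.78 in #8520, Lyve1, a hyaluronan receptor of lymph vessels and resident macrophages, by 1.16, against -0.66 in NR-S1, -0.81 in SCCVII and -2.23 in #8520, and Rasgrf1, an exchange factor for RAS, by 1.88, against -0.04 in NR-S1, 0.16 in SCCVII and -2.11 in #8520. Slc7a11 at 6 h changed by 1.45, against -1.09 in NR-S1, -1.05 in SCCVII and 0.98 in #8520. The response of mitosis genes was higher in NFSa in 23 of 33 at day 1 (median 0.49, with #8520 the tumour of the lowest median) and lower in 17 at day 3 (median -0.34). Over all genes 16.7% had a higher response at day 1 and 8.22% a lower one at day 3. These differences too rest on the gamma arm's untreated NFSa arrays, where 28 of the 33 were lower than in the carbon-ion arm (median -0.75). At 6 h 2 of 8 fat cell markers had a lower response in NFSa, 6 of 24 unfolded protein and heat shock genes a lower one and 2 a higher one, and 13 of 25 muscle markers a lower one and 1 a higher one. Adipoq was at -3.84 in NFSa, against -2.15 in NR-S1, -0.13 in SCCVII and 0.26 in #8520, Hspa1a at -1.79, against -0.0021 in NR-S1, 2.34 in SCCVII and 1.54 in #8520, and the muscle kinase gene Mylk4 at -1.37, against -1.89 in NR-S1, 2.98 in SCCVII and 3.88 in #8520.

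The 50 Gy arrays of NFSa were set against the 30 Gy arrays at each time. At 6 h 2127 of 13463 genes differed (15.8%), 1012 higher (7.52%) and 1115 lower (8.28%) at 50 Gy, and without the second 30 Gy array at 6 h 1401. At day 1 364 of 13458 differed (2.7%), 264 higher (1.96%) and 100 lower (0.743%), and at day 3 328 of 13464 (2.44%), 218 higher (1.62%) and 110 lower (0.817%). These last counts rest on few arrays, with 220 at day 1 without the first 50 Gy array, and at day 3 142 and 147 without the first or the second 50 Gy array and 177 without the first 30 Gy array.

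At 6 h Gbp8 read 0.280 and 0.255 after 50 Gy, against 29.9 and 33.1 after 30 Gy (log2 difference -6.88, SE 0.118, adjusted p = 2.1e-44). Gzma read 1.46 and 1.62, against 19.5 and 23.3 (log2 difference -3.79, SE 0.141, adjusted p = 1.1e-28), and Cxcl9 7.76 and 7.95, against 84.8 and 80.2 (log2 difference -3.39, SE 0.102, adjusted p = 9.0e-33). In each case the 50 Gy arrays lay far below the 30 Gy ones. Of the lists, 20 of 21 interferon gamma genes were lower at 50 Gy (median -2.50), with 26 of 30 type I interferon genes (median -1.36), 13 of 18 NK markers (median -1.77) and 12 of 12 genes of MHC class I processing (median -1.07). The summed intensity of the interferon gamma list was 199.8 and 179.8 at 6 h after 50 Gy, against 813 and 797 after 30 Gy, and that of the NK list 30.2 and 31.9, against 77.2 and 76.7. The 50 Gy sums lay nearer to the untreated sums of the carbon-ion arm than to those of the gamma arm. Dose and differences between single tumours cannot be told apart with 2 arrays a group. Neutrophil-attracting chemokines were higher at 50 Gy in 7 of 8 (median 1.12) and inflammatory genes in 15 of 27, with 2 lower. Ccl20 read 13.2 and 13.3 after 50 Gy, against 1.28 and 1.11 after 30 Gy (log2 difference 3.47, SE 0.304, adjusted p = 1.2e-13). The collagenase gene Mmp13, the plasminogen activator inhibitor Serpinb2, Mylk4 and Adipoq were higher by 2.67, 2.44, 2.27 and 3.18, and Gbp4 and Ubd lower, with differences of -3.83 and -3.87.

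At day 1 and day 3 most members of the muscle, neutrophil and killer-cell lists did not pass between doses, apart from the muscle list at day 1. Of 17 neutrophil markers 7 were higher at 50 Gy at day 1, and at day 3 5 were higher and 1 lower. Of 18 NK and cytotoxic markers 4 were higher at day 1 and 6 at day 3, and of 26 muscle markers 7 were lower at day 3. At day 1 Myl2 read 2.87 and 2.92 after 50 Gy, against 0.381 and 0.314 after 30 Gy (log2 difference 3.07, SE 0.180, adjusted p = 1.9e-19), with Tnnc1, Myoz2 and Tnni1, all of slow muscle, higher by 3.03, 2.45 and 2.40, and 14 of 26 muscle markers passed as higher. Retnlg was higher by 2.23 at day 1. At day 3 Gzme and Il1b were higher by 1.21 and 1.16 after 50 Gy, Mcpt8, a protease of basophils, by 1.26 and Slc40a1, the iron exporter ferroportin, by 1.18. Car3, the carbonic anhydrase of muscle and fat, and the muscle genes Csrp3 and Xirp2 were lower, with differences of -2.40, -1.93 and -1.27. Cdkn1a read 78.8 and 94.3 at day 1 after 50 Gy, against 58.7 and 91.0 after 30 Gy, and the difference did not pass (log2 difference 0.24, SE 0.192, adjusted p = 0.676). At 6 h it read 148 and 112 after 50 Gy, against 82.8 and 63.7 after 30 Gy (log2 difference 0.83, SE 0.192, adjusted p = 0.00118), and this call was lost without the second 30 Gy or the first 50 Gy array.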

How the data were processed

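Total RNA of tumour tissue was read on 1-colour arrays labelled by the CodeLink protocol, per the labels. The deposited intensities are on a linear scale with a median near 1 on each array, and some are at or below 0 (lowest -0.0659). How the scans were read, corrected for background and scaled is not given in the sources used here. Log2 was taken of the deposited values, and values not above 0 (0.199% on the 8 arrays, with 0.649% more deposited as missing) were left out, so 231 tested genes lack a value on at least 1 of the 8. The number of arrays limits the precision.

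Of 36227 probes 21615 had 1 gene symbol, 681 several and 13931 none, and 21487 symbols were matched to RefSeq, which gave 18069 genes. A gene was its brightest probe (3002 had several). The dimmest 25% of genes, and those with a value on under 80% of arrays, were left out, and 13465 remained. limma 3.58.1 (R 4.3.3, data.table, version 1.17.8) fitted 88 arrays in 44 groups of 2 (44 residual and 7.30 prior degrees of freedom), with two-sided tests and Benjamini-Hochberg adjustment within a comparison. Tested on simulated data for the 6 h comparison over 13465 genes, the fit recovered 26% of genes changed 1.25-fold, 82% at 1.5-fold, 98% at 2-fold and also 98% at 4-fold. Of its 156 calls 4 were false. Only 50 genes were changed at each fold, far fewer than the 1985 that passed at 6 h. Recovery of small changes in the data may therefore differ.

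Genes named are the 10 largest passing rises and falls at each time (5 for steps, doses and untreated arms, 3 for the other tumours) with arrays that did not overlap and a mean log2 of at least 0 in the higher group, up to 4 members of each of 40 gene lists, and Cdkn1a, Mdm2, Ccng1 and Plk1, with predicted genes passed over. Not every gene the rule allows is printed. The arrays and lists were chosen with earlier results of these data known. Same-numbered NFSa arrays were not taken as pairs. The correlations of array 2 minus array 1 were 0.180, 0.0423 and -0.105 between untreated, 6 h and day 3. They were 0.101 to 0.233 for the pairs with a 50 Gy group, so that not every pair was over 0.1. Day 1, whose arrays are numbered 3 and 4, was left out of these correlations. Alternatives changed the normalization, offset, filter, probe rule, variance prior, arrays fitted, replicate block and baseline, and left out each array in turn. Promoters came from RefSeq, assembly GRCm38.p6.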

Additional observations from a re-analysis of the deposited data

Results flagged for a closer look

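The response to 30 Gy of gamma rays was tested as an interaction, NFSa minus the mean of NR-S1, SCCVII and #8520. The 3 named genes with the largest difference in each direction at each time are listed with that difference on the log2 scale, and the change in each tumour stands in the results above. At 6 h the response was higher in NFSa for the granzymes Gzmg (2.15) and Gzmf (1.97) and the cystine transporter Slc7a11 (1.84). It was lower for the fat cell hormone Adipoq (-3.17), the heat shock protein Hspa1a (-3.08) and the muscle kinase Mylk4 (-3.03). At day 1 it was higher for the clock gene Arntl (1.73), the acute-phase gene Orm2 (1.71) and Gzmg (1.51), and lower for the interferon-induced Gbp8 (-5.88), Acod1 (-4.58) and Calhm6 (-4.36). At day 3 it was higher for Rasgrf1 (2.54), Cyp2f2 (2.40) and Lyve1 (2.39), and lower for Gbp8 (-4.02), Ubd (-3.54) and Gzma (-2.87). For many of these genes the other tumours were also far apart among themselves, as their values above show. Groups of 2 arrays allow no test for a single outlying array.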

How the results depend on the processing

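The untreated arrays chosen as the baseline moved the results most. With the untreated arrays of both arms 4833 genes passed at 6 h and 6513 at day 3, and with those of the carbon-ion arm alone 7034 at 6 h, 6695 at day 1 and 7743 at day 3. With both arms these named genes changed direction: at 6 h Cd3g (0.016), Cd8b1 (0.071), Ciita (0.58), Gbp8 (3.39), Gzma (0.60) and Myl2 (-0.42), at day 1 Arntl (-0.15), and at day 3 Cxcl2 (0.52), Cxcl9 (0.91), Gbp8 (1.14) and Gzma (0.96). With the carbon-ion arm they were at 6 h Cd3g (1.24), Cd5 (0.54), Cd8b1 (1.33), Ciita (1.79), Gbp8 (7.33), Gzma (2.56) and Myl2 (-2.02). At day 1 they were Arntl (-0.97), Calhm6 (0.069), Ccl5 (0.25), Cd274 (0.57), Cd34 (-0.53), Cxcl2 (1.10), Fpr2 (0.093), Gbp4 (0.23), Gbp8 (0.74), Gzma (0.025), Gzmb (0.065), Il1b (0.63), Jchain (0.15), Pdcd1 (0.045) and Psmb9 (0.13). At day 3 they were C2 (-0.22), Cd3g (0.85), Cd8b1 (0.82), Cxcl2 (1.88), Cxcl9 (3.47), Gbp8 (5.09), Gzma (2.92), Marco (0.19), Mdm2 (-0.068), Retnla (0.071) and Ubd (1.09). The cause was not tested.

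With the dimmest 50% of genes left out, and so fewer genes tested, 904 genes differed from the other tumours at 6 h and 1563 at day 3, 210 between doses at day 1 and 214 at day 3, and 4306 between the untreated arms. With only the arrays compared in the fit, 1143, 214 and 109 genes differed between doses at 6 h, day 1 and day 3. The same setting gave 2005, 2888 and 3676 genes at the 3 times against untreated. It gave 2515 from 6 h to day 1 and 3121 from day 1 to day 3. Leaving out 1 array at a time gave 1205 to 1493 genes at 6 h, 2117 to 3119 at day 1, 3083 to 3320 at day 3, 2155 to 2634 from 6 h to day 1 and 3366 to 3665 from day 1 to day 3. Against the other tumours the ranges were 865 to 1164, 1829 to 3083 and 1483 to 2314, between doses 1401 to 1961, 220 to 274 and 142 to 249 in order of time, and between untreated arms 5090 to 5875. With the number in the titles as a replicate block, 2050, 3663 and 4245 genes passed at the 3 times, and the block changed no count over all genes by over 1.5 times and no call of a named gene, while 8 counts of list members moved by over 1.5 times, each by 1 gene. Under the settings that kept the baseline and all arrays compared, 2286 of 2288 values of named genes kept their direction and call, the exceptions being Cdc6 and Dsp with the mean of all probes. Leaving out 1 array ended the call in 13 of 1047 values and reversed no direction. With 2 arrays a group, changes under 1.5-fold often escape the test.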

Other observations

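Of 19 keratinocyte and epithelial markers 2 rose and 3 fell at 6 h. The plakin Dsp read 2.0 and 2.28 at 6 h, against 0.770 and 0.762 untreated (log2 change 1.48, SE 0.343, adjusted p = 0.00126, and 0.54, not passed, over the mean of its probes), and the keratin Krt8 was lower by day 3 (log2 change -1.16, SE 0.238, adjusted p = 9.7e-05). Of 11 mast cell and eosinophil markers 4 fell and 1 rose at 6 h, 5 fell and 1 rose at day 1 and 5 fell at day 3. For the counts of this section, 9.21% of all genes rose and 5.53% fell at 6 h, 18% and 8.97% at day 1, and 15.1% and 15.9% at day 3. Hdc, the enzyme that makes histamine, rose by 1.37 at 6 h. Of 14 immune checkpoint genes 3 rose and 4 fell at day 3 (median -0.04). Lgals9, which encodes galectin-9, rose by 1.21 and Cd200, an inhibitory ligand, by 1.07 at day 3. Mgarp, a mitochondrial protein, was among the largest falls at day 3, with a change of -2.55.

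The matrix list held more falls than rises at 6 h and more rises than falls at day 3. Over all genes 9.21% rose and 5.53% fell at 6 h, 18% and 8.97% at day 1, and 15.1% and 15.9% at day 3. At 6 h 9 of 26 proteoglycans and other matrix genes fell and 1 rose (median -0.23), at day 1 4 fell and 7 rose (4 without the second untreated array), and at day 3 5 fell and 12 rose (median 0.23). Fmod, fibromodulin, fell by 1.26 at 6 h and 1.34 at day 1. Lum, lumican, fell by 0.89 at 6 h. Prelp rose by 1.22 at day 1, and Fbln5, which assembles elastic fibres, rose by 1.47 at day 3. Matrix metalloproteinases and their inhibitors rose in 9 and fell in 3 of 18 at day 3 (median 0.36), with Adamts5, an aggrecanase, at 1.11.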
